A study of Homo sapiens with 6 samples.

Results

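Kinesins are motor proteins that use ATP to move along microtubules, and most of their genes are named KIF, or KIFC where the motor domain lies at the C terminus. The family was taken as the protein-coding rows of the deposited count table whose symbol is KIF or KIFC followed by a number and at most one letter from A to C. This gave 42 genes of the 58735 in the table. The rule leaves out CENPE, a kinetochore kinesin with another name, which is given among the mitotic partners. By general knowledge of their roles, with earlier results of these data known, 14 were assigned to mitosis, 18 to transport of cargo and 10 to cilia and other roles. Some roles cross these classes: KIF2A, which acts on spindles too, was placed in the last class. KIF21A, which restrains microtubule growth, was placed in the transport class. All 42 had the coordinates of GENCODE release 29 on GRCh38. Of the 42, 31 passed the filter on low counts (12 mitotic, 14 transport and 5 ciliary or other), and the 11 that did not are described by their reads.

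RNA was sequenced after poly-T capture from KYSE410, a human cell line from an oesophageal squamous cell carcinoma, in 3 control samples and 3 samples with knockdown of ADAR1 (siADAR1). ADAR1 is the enzyme that edits adenosine to inosine in double-stranded RNA. The controls are titled NC, carry the same batch entry as the siADAR1 samples and have the genotype wild type, with no statement of a control siRNA, and both groups carry the same entry for treatment, which is none, and were grown in RPMI with fetal bovine serum. No label gives the siRNA sequence, the time after knockdown or separate cultures, so effects of siRNA delivery or off-target effects cannot be told apart from loss of ADAR1. A p-value here reflects variation among these 3 samples per group alone, and that variation may be technical.

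Total counts were 15175619 to 17329443 per library. ADAR, the targeted gene, was at 431.5 to 455.6 CPM (counts scaled to a common library size) in control and 77.6 to 95.7 CPM in siADAR1. The 8 squamous epithelial markers, of which 7 passed the low-count filter, summed to 503.1 to 572.2 CPM in control and 571.5 to 649.9 CPM in siADAR1, while KRT14 had at most 2 reads in any library. PERP and TP63 made up most of that sum, and its members moved apart, with KRT6A (log2 fold change -2.24), KRT13 (-0.90) and KRT5 (-0.54) lower and DSG3 (1.54) and TP63 (0.48) higher. The part of these markers in the results was not tested. The simple epithelial markers summed to 1528.9 to 1628.3 CPM and 1470.1 to 1606.0 CPM, with CDX2 and VIL1 at 0. Immune markers summed to at most 0.0673 CPM and endothelial markers to at most 2.15 CPM. The 5 fibroblast markers summed to 39.8 to 57.5 CPM in control and 71.7 to 84.1 CPM in siADAR1, mostly LUM and COL1A1, with DCN at 0; their part in the results was not tested.

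In mitosis, kinesins separate the spindle poles, carry and align chromosomes, shorten microtubule ends and build the midzone at which the cell divides. Transport kinesins carry vesicles, endosomes, mitochondria and RNA through the cell in all phases of the cycle. Many genes that peak in G2 and mitosis have a cell cycle gene homology region (CHR) near their start, which is read by the DREAM complex in resting cells and by complexes with B-MYB and FOXM1 in dividing cells. They often have a CCAAT box, the site of the factor NF-Y, as well.

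The promoters shown here are those of the 3 mitotic kinesins with the smallest p (KIF18B, KIFC1 and KIF2C), of KIF20A, and of KIF3B and KIF5B, the transport kinesins with the clearest fall and the highest level. Each runs 5′ to 3′ on the strand of its gene over 300 bases, 250 before and 50 after the start in RefSeq on GRCh38.p14. Capitals mark TTTGAA or TTTAAA (the CHR letters) and CCAAT on either strand, so that TTCAAA and ATTGG are matches on the opposite strand.
KIF18B (chr17:44947724-44948023, minus strand): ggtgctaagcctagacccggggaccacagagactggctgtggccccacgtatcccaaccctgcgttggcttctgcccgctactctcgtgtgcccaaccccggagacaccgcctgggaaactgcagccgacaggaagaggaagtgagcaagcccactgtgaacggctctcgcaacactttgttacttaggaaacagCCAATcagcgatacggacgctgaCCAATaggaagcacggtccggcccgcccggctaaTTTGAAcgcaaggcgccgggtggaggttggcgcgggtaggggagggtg
KIFC1 (chr6:33391573-33391872, plus strand): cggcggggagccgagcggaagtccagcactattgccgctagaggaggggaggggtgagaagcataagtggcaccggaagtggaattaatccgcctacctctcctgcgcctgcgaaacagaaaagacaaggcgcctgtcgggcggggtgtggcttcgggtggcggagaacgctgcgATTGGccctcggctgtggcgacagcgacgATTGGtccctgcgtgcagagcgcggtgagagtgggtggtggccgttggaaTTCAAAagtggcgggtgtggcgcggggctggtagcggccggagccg
KIF2C (chr1:44739587-44739886, plus strand): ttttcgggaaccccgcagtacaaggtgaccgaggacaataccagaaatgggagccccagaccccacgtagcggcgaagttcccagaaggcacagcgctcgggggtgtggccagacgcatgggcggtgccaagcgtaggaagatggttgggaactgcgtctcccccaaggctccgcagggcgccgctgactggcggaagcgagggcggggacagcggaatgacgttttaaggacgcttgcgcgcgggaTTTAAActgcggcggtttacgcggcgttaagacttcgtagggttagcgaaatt
KIF20A (chr5:138178862-138179161, plus strand): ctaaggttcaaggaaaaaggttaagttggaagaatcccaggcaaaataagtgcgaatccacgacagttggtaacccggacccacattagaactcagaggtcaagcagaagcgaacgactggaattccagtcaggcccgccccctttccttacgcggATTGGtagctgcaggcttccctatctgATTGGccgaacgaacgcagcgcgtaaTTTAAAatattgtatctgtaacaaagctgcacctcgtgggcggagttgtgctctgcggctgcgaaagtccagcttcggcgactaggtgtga
KIF3B (chr20:32277401-32277700, plus strand): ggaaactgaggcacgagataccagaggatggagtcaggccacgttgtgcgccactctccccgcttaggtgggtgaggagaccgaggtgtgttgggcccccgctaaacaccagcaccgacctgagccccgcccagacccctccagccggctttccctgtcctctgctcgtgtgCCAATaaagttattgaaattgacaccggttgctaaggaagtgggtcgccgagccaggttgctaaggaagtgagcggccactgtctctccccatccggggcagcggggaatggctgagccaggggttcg
KIF5B (chr10:32056376-32056675, minus strand): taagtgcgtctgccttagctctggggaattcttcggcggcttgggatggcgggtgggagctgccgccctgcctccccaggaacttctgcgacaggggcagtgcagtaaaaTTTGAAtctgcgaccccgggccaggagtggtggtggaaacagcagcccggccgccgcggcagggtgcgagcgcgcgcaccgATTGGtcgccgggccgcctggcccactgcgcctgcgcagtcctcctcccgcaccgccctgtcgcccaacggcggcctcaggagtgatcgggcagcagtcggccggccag

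Of the 42 kinesins, 34 were matched by symbol in the RefSeq promoter table, with 43 promoters in all. CHR letters were in 12 of the 15 promoters of mitotic kinesins (80.0%), 2 of the 19 of transport kinesins (10.5%) and 0 of the 9 of the other kinesins, against 24.0% of all 35116 promoters of the same length. TTTGAA was in 10 of the 15 mitotic promoters and in 5324 of all 35116, and TTTAAA in 4 and in 4298. CCAAT was in 11 of the 15 mitotic and 7 of the 19 transport promoters, against 34.6% of all. Both kinds of letters were together in 10 of 15 mitotic promoters, 1 of 19 transport promoters, that of KIF5B, and 9.27% of all.

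Each of the 12 mitotic promoters with CHR letters had a match near the start, and KIF14 and KIF23 had a further match 198 and 211 bases before it. In a window from 100 bases before to 50 after it, chosen after the positions were seen, these 12 mitotic promoters had a match, and 0 of the transport promoters did, against 11.2% of all promoters. With the start base counted as 0, the match in KIF20A began 41 bases before the start, in KIF2C 3 before, in KIF18B 2 after and in KIFC1 4 after. The match of KIF5B began 140 bases before its start and that of KIF16B 241 before. KIF3B held no CHR letters and a single CCAAT. KIF22 and KIF2B were the mitotic kinesins with no CHR letters in these windows. Matches describe letters and not binding, which was not measured here.

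**Figure D1:**
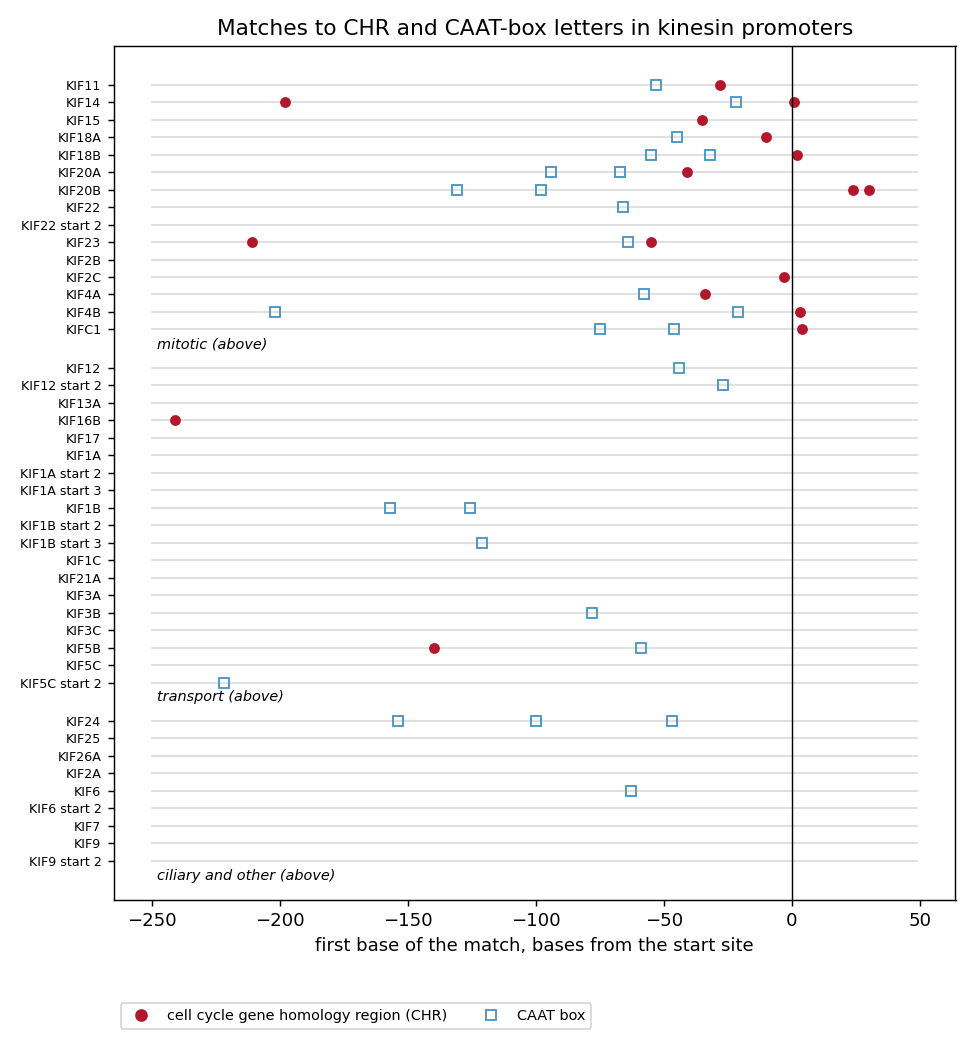
Matches to CHR letters (filled red circles) and CCAAT (open blue squares) on either strand in 43 kinesin promoters. The x axis is the first base of the match in bases from the RefSeq start, and each line is 1 promoter, grouped by class. Within 100 bases of the start, CHR matches are in 12 of 15 mitotic promoters and in 0 of 19 transport promoters.

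Across the family, mitotic kinesins fell and most transport kinesins that changed rose. Of the 31 tested kinesins, 14 fell and 8 rose in siADAR1 at an adjusted p below 0.05 in edgeR's quasi-likelihood test, with adjustment over all 15294 tested genes. Of all tested genes 25.0% fell and 26.0% rose, 51.0% in all, so falls took a larger share of the kinesins (45.2%) and rises a like share (25.8%). The mitotic kinesins made up 10 of the 14 falls, with 10 of 12 lower, 0 higher and a median log2 fold change of -0.98. In these bulk samples, fewer cells in mitosis and less RNA per cell cannot be told apart. The transport kinesins had 7 of 14 higher, 3 lower and a median of 0.24. The median of all tested genes was 0.0. The count of transport kinesins that rose was 4 without siADAR1 replicate 2 and also 4 without siADAR1 replicate 3, and without the latter 1 transport kinesin, KIF3B, fell. For 24 of 31 kinesins the CPM ranges of control and siADAR1 were separate, against 60.3% of all tested genes.

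**Figure D2:**
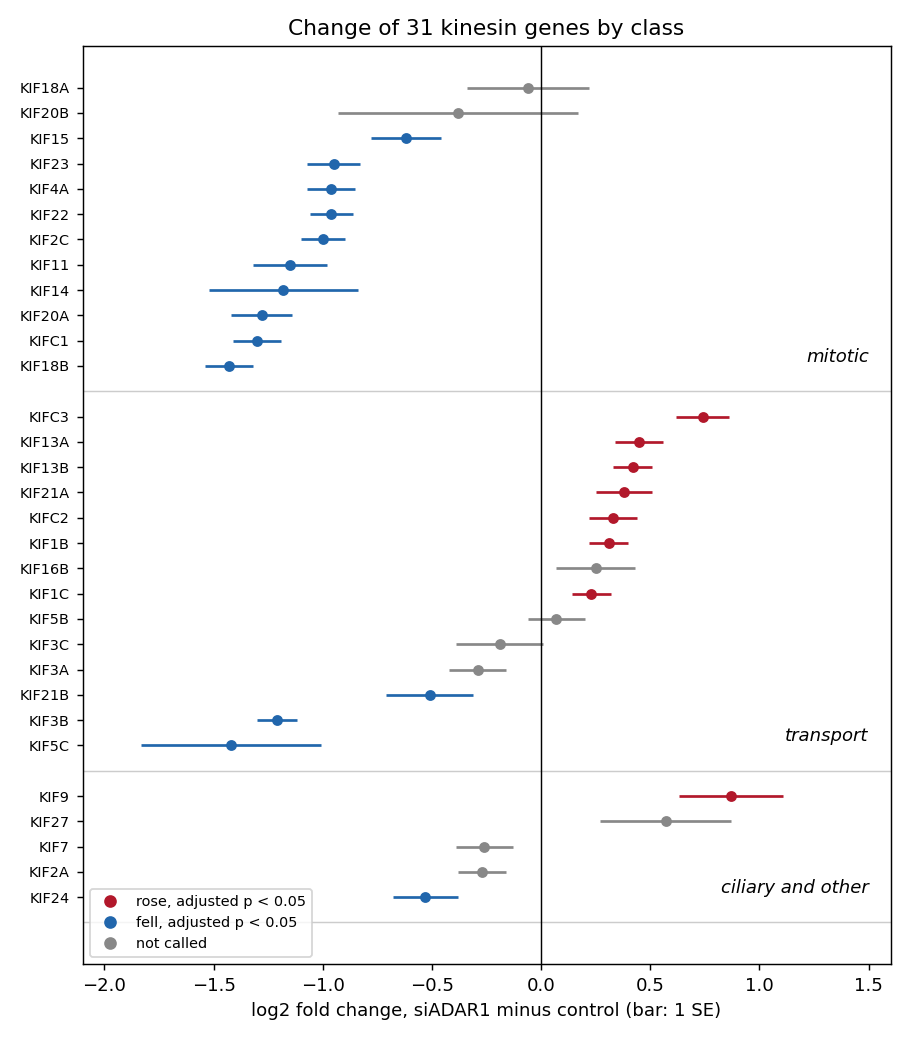
Log2 fold change of each of the 31 tested kinesins, siADAR1 minus control, with bars of 1 SE and 3 libraries per group. Blue points fell, red points rose and grey points did not pass an adjusted p of 0.05. The mitotic genes lie between -1.43 and -0.06, and the transport genes between -1.42 and 0.74.

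The contrast between the classes was also seen within each library, where no scaling factor enters. Control libraries held 0.926, 0.959 and 0.956 reads of mitotic kinesins per read of a transport kinesin, and siADAR1 libraries held 0.346, 0.453 and 0.469. The ratio was thus lower in all 3 siADAR1 libraries, and lowest in siADAR1 replicate 1. On the log2 scale the ratio differed by -1.18 on average. The deposited FPKM values (fragments per length of transcript and per depth) allow levels to be summed per length. On that scale mitotic kinesins summed to 217.5, 243.6 and 248.0 FPKM in control and 97.2, 126.4 and 127.3 FPKM in siADAR1. Transport kinesins summed to 138.1, 156.7 and 163.8 FPKM in control and 166.0, 166.4 and 167.1 FPKM in siADAR1. The mitotic class held 57.1% to 57.9% of all kinesin FPKM in control and 34.5% to 40.7% in siADAR1.

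**Figure D3:**
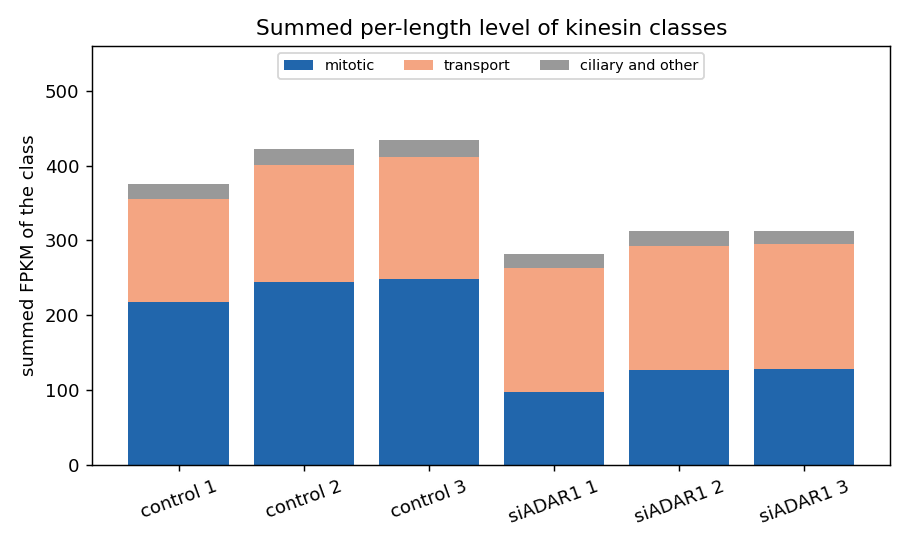
Summed FPKM of mitotic, transport and other kinesins in each of the 6 libraries, as stacked bars from 0. The mitotic part is 217.5 to 248.0 in control and 97.2 to 127.3 in siADAR1, while the transport part is 138.1 to 163.8 and 166.0 to 167.1.

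The motors KIF18B and KIFC1 had the smallest p-values of the mitotic kinesins. KIF18B (ENSG00000186185, chromosome 17, 44924709 to 44947711, GRCh38), which controls the length of astral microtubules, was at 90.5, 75.8 and 84.6 CPM in control and 27.3, 33.4 and 32.4 CPM in siADAR1. The siADAR1 libraries all lay well below the lowest control library. Its mean was 37.1% of control, with a log2 fold change of -1.43 ± 0.11 (SE) and an edgeR adjusted p of 7.61e-07. KIFC1 (ENSG00000237649, chromosome 6, 33391536 to 33409924), a minus-end motor that focuses spindle poles, was at 96.3, 104.5 and 100.8 CPM in control and 35.0, 46.7 and 40.9 CPM in siADAR1. Its groups were far apart, at -1.30 ± 0.11 (SE, adjusted p = 1.55e-06).

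KIF2C, the centromeric depolymerase MCAK that frees wrongly attached microtubules, was at 131.8, 125.2 and 124.6 CPM in control and 56.5, 67.4 and 67.0 CPM in siADAR1. The controls agreed closely, and all siADAR1 libraries were far below them (log2 fold change -1.0 ± 0.10, SE, adjusted p = 3.51e-06). KIF11, the motor Eg5 that pushes spindle poles apart, was at 81.3, 115.6 and 120.9 CPM in control and 39.3, 46.2 and 57.8 CPM in siADAR1. Both libraries numbered 1 were the lowest of their group, and the groups did not overlap (-1.15 ± 0.17, SE, adjusted p = 2.88e-04). KIF15, which can keep the spindle bipolar beside KIF11, fell from 37.9 ± 8.33 to 24.7 ± 3.40 CPM (SD, n = 3), with a log2 fold change of -0.62 ± 0.16 (SE) and an edgeR adjusted p of 6.09e-03. The call of KIF15 was lost in limma on FPKM with a pseudocount of 1 and no filter (adjusted p = 0.0875). Its gene shares bases with TMEM42 on the same strand, which had 180 reads in control and 640 in siADAR1.

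The chromokinesins, which bind chromosome arms, fell together. KIF22 went from 119.0 ± 11.0 to 61.1 ± 5.13 CPM (SD, n = 3) and KIF4A from 92.8 ± 2.46 to 47.6 ± 6.26 CPM, each with a log2 fold change of -0.96. KIF4B, an intronless copy of KIF4A, had 0 to 4 reads per library, and reads of these near-identical genes may be divided between them. KIF2B, a relative of KIF2C, had 0 reads in all 6 libraries. A floor of 3 counts is 0.173 to 0.198 CPM.

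Kinesins of the midzone and cytokinesis fell too, apart from KIF20B. KIF20A, the motor MKLP2 that brings Aurora B to the midzone, was at 132.7, 137.6 and 138.2 CPM in control and 42.1, 66.5 and 59.3 CPM in siADAR1. Replicate 1 was the lowest siADAR1 library, and the log2 fold change was -1.28 ± 0.14 (SE, edgeR adjusted p = 1.11e-05). KIF23, the motor MKLP1 of the centralspindlin complex, fell from 124.5 ± 18.4 to 64.4 ± 8.11 CPM (SD, n = 3). KIF14, needed to finish cytokinesis, was at 34.6, 57.7 and 68.1 CPM in control and 14.8, 27.2 and 28.9 CPM in siADAR1. It fell with a wider error, at -1.18 ± 0.34 (SE, adjusted p = 0.0273), and its call was lost without control replicate 2 (adjusted p = 0.0666) and without a filter on low counts (0.128). Limma on FPKM with a pseudocount of 1 and no filter lost it too (0.065).

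KIF20B and KIF18A did not pass. KIF20B, a cytokinesis motor, was at 25.6, 62.3 and 83.6 CPM in control and 25.8, 48.5 and 57.5 CPM in siADAR1, so that the groups overlapped and both low values were libraries numbered 1. Its log2 fold change was -0.38 ± 0.55 (SE, adjusted p = 0.608), and with 1 library left out it ranged from -0.75 without control replicate 1 to -0.11 without siADAR1 replicate 1 and -0.01 without control replicate 3, none past the threshold. With both libraries numbered 1 left out it was -0.46, with an adjusted p of 0.0074. KIF18A, which limits the length of kinetochore microtubules, was at 26.7, 56.7 and 52.7 CPM in control and 35.4, 45.4 and 49.9 CPM in siADAR1. Its log2 fold change was -0.06 ± 0.28 (SE), -0.34 without control replicate 1 (adjusted p = 0.0445) and 0.13 without control replicate 2 (0.739), so no direction is given.

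The libraries numbered 1 stood apart in these genes, and also over all genes. For genes with at least 40 reads in a pair of libraries, differences were set against counting error as a chi-square per degree of freedom. In control this was 15.4 and 18.5 for replicate 1 against 2 and 3, and 5.32 between 2 and 3. The same values in siADAR1 were 16.2, 19.9 and 4.15. In control replicate 1, 6 of 12 mitotic kinesins were below 0.8 of the mean of replicates 2 and 3, down to 0.35 for KIF20B, as were 3 of 14 transport kinesins. In siADAR1 replicate 1, 7 of 12 mitotic kinesins and 1 of 14 transport kinesins were. The share of all tested genes below 0.8 of that mean was not counted. Over the 31 tested kinesins the log2 of replicate 1 over that mean in control correlated with that in siADAR1 (Pearson r = 0.61, across genes, which share the libraries). With both libraries left out, 11 of 12 mitotic kinesins fell, in a fit that called 4107 of 15359 genes lower.

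**Figure D4:**
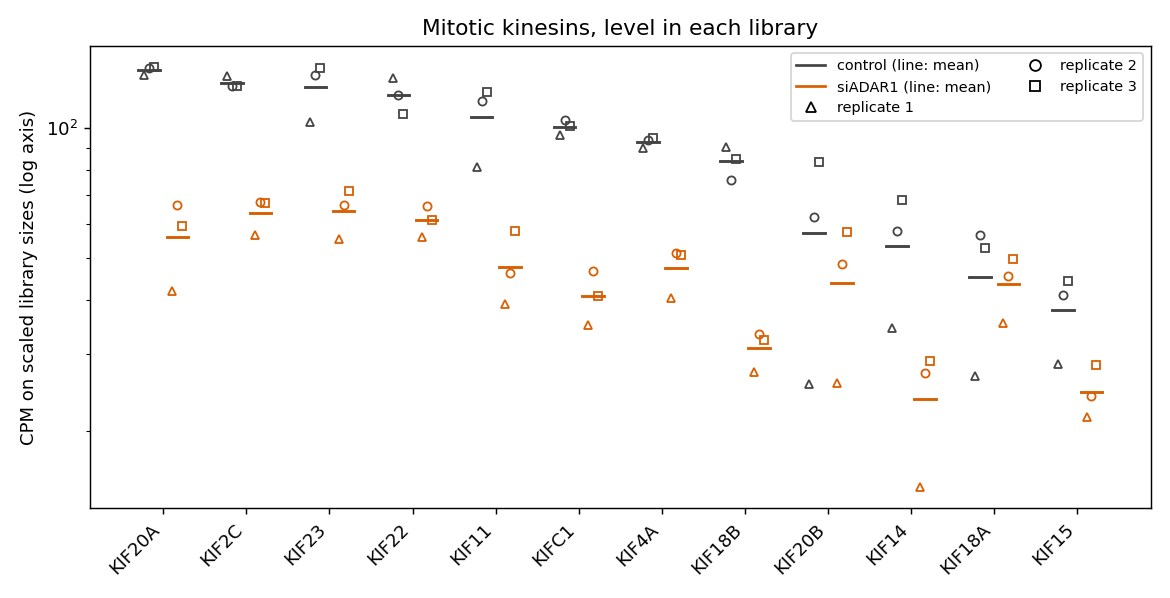
CPM of the 12 tested mitotic kinesins in each library, on a log axis, with lines at the mean of 3 libraries and a marker for each replicate number. The groups are apart for 10 genes and overlap for KIF20B and KIF18A, where control replicate 1 is low.

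Among the transport kinesins, KIF5B was the most abundant motor of the family and did not pass the test. Conventional kinesin is built from KIF5 heavy chains and light chains (KLC). KIF5B (ENSG00000170759, chromosome 10, 32009010 to 32056431) was at 276.6, 395.5 and 411.3 CPM in control and 376.8, 362.3 and 397.2 CPM in siADAR1. Control replicate 1 was low and the other 5 libraries lay close together, with a log2 fold change of 0.07 ± 0.13 (SE), which turned to -0.10 without control replicate 1. Per length it stood at 60.8 ± 12.5 FPKM in control and 63.6 ± 2.82 FPKM in siADAR1 (SD, n = 3). The next 2 in control were KIF2C at 34.5 ± 1.05 and KIF20A at 34.1 ± 0.794 FPKM, and in siADAR1 they were KIF1C at 22.5 to 27.2 and KIFC3 at 18.2 to 23.4 FPKM. The libraries of KIF2C and KIF20A overlapped in control, as did those of KIF1C and KIFC3 in siADAR1. KIF5C, a neuronal heavy chain, was near the limit of detection, with 77 reads over the controls and 30 over the siADAR1 libraries, and was called lower (adjusted p = 0.011), a call lost without siADAR1 replicate 3 (0.0505). Limma on FPKM with a pseudocount of 1 and no filter did not call KIF5C either (0.0801).

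Several motors of vesicles and endosomes rose by less than 2-fold. KIFC3 (ENSG00000140859, chromosome 16, 57758217 to 57863053), a minus-end motor of epithelial junctions and the Golgi, was at 132.6, 110.7 and 106.8 CPM in control and 227.2, 178.6 and 177.7 CPM in siADAR1. The groups did not overlap and replicate 1 was the highest of each, with a log2 fold change of 0.74 ± 0.12 (SE, edgeR adjusted p = 1.67e-04). The related endosome and membrane motors KIF13A and KIF13B rose alike, by 0.45 ± 0.11 and 0.42 ± 0.09 on the log2 scale. KIF13A lost its call in limma on FPKM with a pseudocount of 1 and no filter (adjusted p = 0.0518). KIF1B, a carrier of mitochondria and vesicles, was at 86.2, 86.0 and 95.6 CPM in control and 108.3, 113.8 and 110.2 CPM in siADAR1 (0.31 ± 0.09, SE, adjusted p = 8.74e-03).

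KIF1C, KIF21A and KIFC2 rose nearer to the threshold. KIF1C, a fast vesicle and RNA carrier, rose by 0.23 ± 0.09 (adjusted p = 0.0478) and KIF21A, which restrains microtubule growth at the cell cortex, by 0.38 ± 0.13 (adjusted p = 0.0275). KIFC2 went from 55.9 ± 8.24 to 70.1 ± 0.878 CPM (SD, n = 3). Of the 6 fits that leave out 1 library, the call of KIF1C was lost without control replicate 2 or 3 or siADAR1 replicate 2 or 3, and that of KIF21A without control replicate 1 or any siADAR1 replicate. KIF1C also lost its call in DESeq2 (adjusted p = 0.0606), in limma-voom (0.0528) and without a filter on low counts (0.0653). Both KIF1C and KIF21A lost it in each limma fit on FPKM. KIFC2 lost its call without control replicate 2 (adjusted p = 0.141), siADAR1 replicate 2 or siADAR1 replicate 3. KIF16B, an early endosome motor, did not pass (0.25 ± 0.18, SE), and was at 0.02 without control replicate 1 and 0.41 without control replicate 3.

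In the heterotrimeric kinesin of intracellular and ciliary transport, the motor KIF3B and the adaptor KIFAP3 fell, while KIF3A and KIF3C did not pass. The complex pairs KIF3A with KIF3B or KIF3C and binds cargo through KIFAP3. KIF3B (ENSG00000101350, chromosome 20, 32277664 to 32335011) was at 101.8, 94.9 and 101.0 CPM in control and 40.1, 45.3 and 43.5 CPM in siADAR1. Its siADAR1 mean was 43.3% of control, with little spread in either group, a log2 fold change of -1.21 ± 0.09 (SE) and an edgeR adjusted p of 7.30e-07, the smallest of the family. KIF3A did not pass, at 26.2, 32.3 and 31.8 CPM in control and 22.3, 25.3 and 25.9 CPM in siADAR1 (adjusted p = 0.0657), although it passed without control replicate 1 (log2 fold change -0.40, adjusted p = 0.0129). KIF3C was at 16.3 ± 2.00 and 14.4 ± 4.01 CPM. Within a library there were 3.89, 2.94 and 3.18 reads of KIF3B per read of KIF3A in control and 1.80, 1.79 and 1.68 in siADAR1, so that the ratio was lower in every siADAR1 library. KIFAP3 fell by 0.48 ± 0.15 on the log2 scale, from 18.8 ± 2.28 to 13.5 ± 1.56 CPM (SD, n = 3). KIF21B, a motor of neurons and immune cells, was called lower at 6.19 ± 0.415 and 4.35 ± 0.419 CPM (adjusted p = 0.0456), and lost the call in each fit that left out 1 library.

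**Figure D5:**
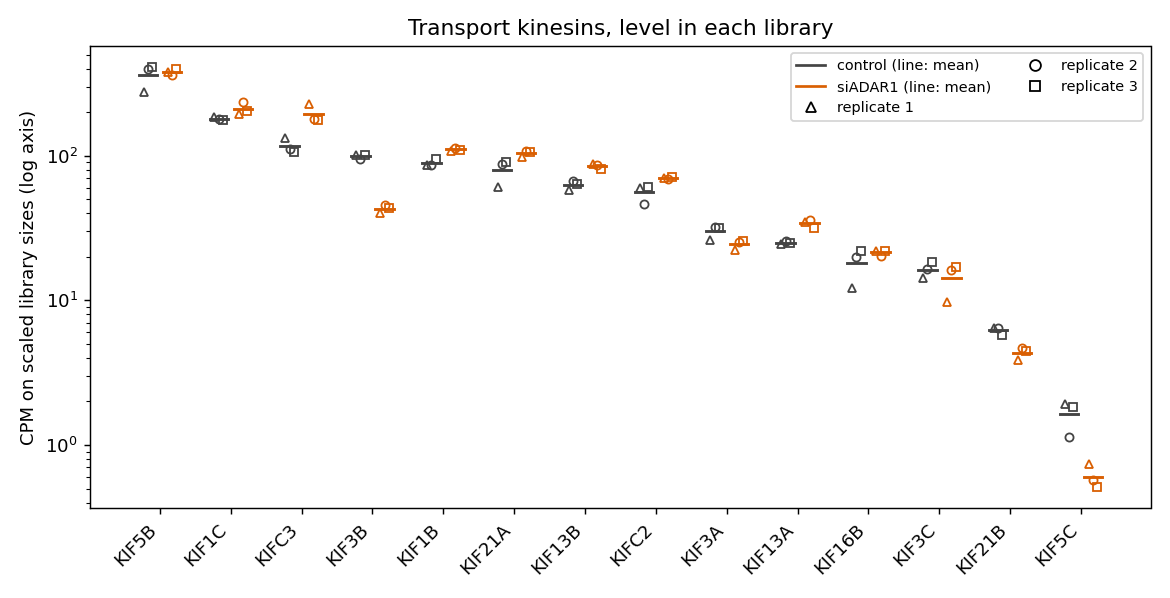
CPM of the 14 tested transport kinesins in each library, on a log axis, with lines at the mean of 3 libraries. KIF3B and KIF5C are lower in siADAR1, KIFC3 is higher, and the KIF5B groups overlap, with control replicate 1 the lowest.

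Of the 5 tested kinesins of cilia and other roles, 1 rose and 1 fell, no more than the 26.0% and 25.0% of all tested genes. KIF9, a motor of flagella, was at 4.47, 4.85 and 3.42 CPM in control and 10.2, 6.94 and 6.10 CPM in siADAR1 (log2 fold change 0.87 ± 0.24, SE, edgeR adjusted p = 7.93e-03). The call of KIF9 was lost in limma on FPKM with a pseudocount of 1, with a mean of at least 0.5 (adjusted p = 0.0529) or no filter (0.141). Its gene overlaps KIF9-AS1 and KLHL18 on the other strand, and no strand step is named, so reads of these genes cannot be told apart where they overlap. KIF24, which holds back cilium growth at the centriole, went from 15.6 ± 1.42 to 10.8 ± 1.34 CPM (SD, n = 3) and fell by 0.53 ± 0.15 on the log2 scale. Limma on FPKM with a pseudocount of 1 and no filter did not call KIF24 (adjusted p = 0.0763). KIF2A, a depolymerase of spindles and neurons, was at 57.0 ± 7.83 and 47.3 ± 2.29 CPM (adjusted p = 0.0658), and passed without control replicate 1 (adjusted p = 0.00431). KIF7, of Hedgehog signalling at the cilium tip, was at 31.7 ± 2.78 and 26.5 ± 3.34 CPM and KIF27 at 2.48 ± 0.934 and 3.70 ± 0.228 CPM, and neither passed, although KIF27 did without control replicate 3 (log2 fold change 0.86, adjusted p = 0.0472). KIF2A and KIF7 overlap expressed genes (IPO11, DIMT1 and TICRR), so their levels are uncertain.

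The remaining 11 kinesins had at most 14 reads in any library. KIF26B had 4 to 11 reads per control library and 4 to 13 per siADAR1 library. KIF17, a motor of dendrites and cilia, had 11, 1 and 1 reads in control and 14, 11 and 9 in siADAR1. KIF1A, the carrier of synaptic vesicle precursors, had 0 reads in control and 1, 1 and 2 in siADAR1. KIF4B, KIF5A, KIF6, KIF12, KIF19, KIF25 and KIF26A had at most 4 reads in any library, and KIF2B had none.

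Genes that work with the mitotic kinesins also fell. Of 22 tested mitotic partners, 20 fell and 0 rose, with a median log2 fold change of -0.88, against 25.0% lower among all tested genes. The chromosomal passenger genes AURKB (-1.04 ± 0.11, SE), INCENP (-1.29 ± 0.11), BIRC5 (-1.15 ± 0.10) and CDCA8 (-1.22 ± 0.11), whose complex KIF20A carries, fell together. RACGAP1, the partner of KIF23 in centralspindlin, went from 204.4 ± 11.2 to 111.8 ± 11.1 CPM, and TPX2, which binds KIF11 on the spindle, from 605.3 ± 38.7 to 363.4 ± 38.1 CPM (SD, n = 3). PLK1 had the smallest p of the list, at -1.39 ± 0.10. CENPE, a kinetochore kinesin with another name, was at 22.8, 69.8 and 92.7 CPM in control and 22.1, 42.1 and 53.7 CPM in siADAR1, with both libraries numbered 1 low, and did not pass (adjusted p = 0.452). PRC1, which recruits KIF4A to the midzone, had 46 reads over the controls and 36 over siADAR1. Its locus overlaps another protein-coding row of the table, so its level is uncertain.

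Adaptors and light chains of transport kinesins moved in both directions. Of 22 tested, 5 rose and 5 fell (22.7% each, near the shares of all genes), with a median log2 fold change of 0.08. The rises were led by SPAG9 (1.31 ± 0.13, SE) and MAPK8IP3 (1.04 ± 0.11), scaffolds that link kinesin to JNK kinases, and included PLEKHM2 (0.72 ± 0.11), which couples lysosomes to kinesin. The light chain genes KLC2 and KLC1 fell by 0.54 ± 0.09 and 0.32 ± 0.12 on the log2 scale. The light chains KLC3 (0.23 ± 0.15) and KLC4 (0.18 ± 0.12) and the heavy chain KIF5B were not called. KIF1BP, which holds some kinesins inactive, did not pass (-0.16 ± 0.11). The split between rises and falls depended on scaling, with 7 higher and 2 lower on library totals alone. Leaving out control replicate 2 gave 3 adaptors lower, and leaving out siADAR1 replicate 2 gave 2.

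Dynein and dynactin, which carry cargo toward microtubule minus ends, were near the background, with 5 of 24 higher, 6 lower (3 on library totals alone) and a median log2 fold change of -0.04. These are shares of 20.8% higher and 25.0% lower, against 26.0% and 25.0% of all tested genes. The dynein adaptor BICD1 rose from 22.5 ± 2.17 to 59.3 ± 9.54 CPM and the intermediate chain DYNC1I1 from 12.2 ± 0.652 to 29.1 ± 2.78 CPM (SD, n = 3), with BICD2 (0.61 ± 0.10, SE) and ACTR1B (0.55 ± 0.09) also higher. Those named had the smallest p of the list, while the 6 that fell reached a log2 fold change of -0.69. Of 17 genes for regulators that act on CHR and CCAAT elements, 8 fell (47.1%, against 25.0% of all tested genes) and 3 rose (17.6%, against 26.0%), with a median of -0.28. MYBL2, which encodes B-MYB, went from 998.8 ± 36.7 to 533.1 ± 50.7 CPM and FOXM1 from 223.4 ± 10.7 to 120.8 ± 17.9 CPM, TFDP1 had a log2 fold change of -0.87 ± 0.08, and CDKN1A, the p21 inhibitor of cyclin-dependent kinases, rose by 0.70 ± 0.08. LIN54, the subunit that contacts CHR letters, did not pass (-0.24 ± 0.11). Of the NF-Y subunits that read CCAAT, NFYA (-0.70 ± 0.14) and NFYB (-0.54 ± 0.13) fell and NFYC rose (0.67 ± 0.10). LIN54 and these subunits were picked out after their values were seen.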

How the data were processed

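Poly-A RNA of 3 control and 3 siADAR1 samples was analysed from the whole-series table of raw read counts per gene that the authors deposited. The FPKM values come from the authors' deposited table and were used for levels per length and for alternative fits. A further deposited table repeats the FPKM with group means and was not used. The submitters' processing notes name CASAVA, fastp and HISAT2 2.0.5. For the counting tool, its strand setting, the annotation and the build, nothing is stated in the sources used here. All columns were matched to samples by name, and 0 were left without one.

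Counts were fitted in edgeR 4.0.16 (R 4.3.3) with TMM factors, filterByExpr (minimum count 10) and the robust two-sided quasi-likelihood F test of siADAR1 against control. Benjamini-Hochberg adjustment ran over all 15294 genes tested, at a threshold of 0.05. CPM use the TMM-scaled totals and SD is over 3 libraries. SE is derived from the test, as the size of the fitted log2 fold change over the square root of its F statistic. Reads are not independent molecules, so floors of 3 counts cover counting error only. The biological coefficient of variation was 0.123. On simulated counts with 200 genes changed, the fit recovered 52.7% of changes of 1.5-fold, 74.6% of 2-fold and 91.4% of 4-fold. Of its calls 10.8% were false, above the threshold of 0.05. Far more genes were called in the real data (7804, or 51.0%), so these shares need not hold there.

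The members, the classes and the gene lists were chosen with earlier results of these data known. Every kinesin could be named, with full statistics for up to 5 called genes per class and direction by smallest p. From the other lists the 4 genes with the smallest p and 9 direct partners of kinesins were named, except for an adaptor gene that is not reported here. Promoters came from the RefSeq table of GRCh38.p14, which is not stated to be the build of the counts. The alternatives were DESeq2 1.42.0, limma 3.58.1 (voom on counts, trend on log2 FPKM plus a pseudocount of 1 or 0.1), other scaling and filters, protein-coding genes alone, a replicate block and leaving out libraries.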

Additional observations from a re-analysis of the deposited data

How the results depend on the processing

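No mitotic kinesin rose under any of the 18 alternatives, and 12 of the 22 called kinesins kept their call under each one (KIF18B, KIFC1, KIF2C, KIF22, KIF20A, KIF4A, KIF23, KIF11, KIF3B, KIFC3, KIF13B and KIF1B). Of 554 alternative values of single kinesins, 492 kept direction and side of the threshold, 43 lost the call, 11 gained it and 8 reversed. Limma on FPKM with a pseudocount of 1 and no filter called 9 kinesins lower and 3 higher, with 3 transport genes higher, and with a mean of at least 0.5 it called 5 higher; each FPKM fit called 1 transport kinesin lower. The median of the transport kinesins (0.241) was 0.136 without both libraries numbered 1, 0.358 on library totals alone and 0.104 on FPKM without a filter. Library totals alone moved the median of all genes to 0.122, with 4892 higher and 2887 lower against 3973 and 3831. Leaving out 1 library gave 12 to 16 kinesins lower and 5 to 8 higher, 1 to 3 transport kinesins lower and 4 to 7 higher, and a transport median of 0.206 to 0.352. KIF18A turned to 0.06 on library totals, 0.01 in voom, and -0.34 to 0.13 when 1 library was left out (0.05 without control replicate 3, 0.07 without siADAR1 replicate 1). With 1 library left out KIF3C ranged from -0.32 to 0.03 (without siADAR1 replicate 1) and KIF5B from -0.10 (without control replicate 1) to 0.16, and without both libraries numbered 1 KIF5B was at -0.09. The cause of these shifts was not tested. Replicate numbers did not meet the rule for pairing, since same-numbered libraries correlated at 0.251, 0.0844 and 0.106 in their deviations from group means and not every library correlated best with its own number. With a replicate block 18 kinesins fell, 11 of them mitotic, 8 rose, and 8582 genes were called in all; KIF20B (adjusted p = 0.0176), KIF2A (0.0277), KIF3A (0.0314) and KIF7 (0.0487) were the falls it added. Kinesins at a few reads per library are limited by depth.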
